A study of Mus musculus with 12 samples.

Results

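The genes described are the ribosomal protein genes and their pseudogenes, taken by name alone: all rows of the deposited table whose symbol starts with Rpl or Rps followed by a number, p0 to p2 or a, leaving out the S6 kinase genes (Rps6k). The rule found 104 of 11791 rows, and all 104 had a mean signal of at least 1 in a group. By name, 43 encode large-subunit proteins, 30 small-subunit proteins and 3 the acidic stalk (Rplp0, Rplp1 and Rplp2). Another 6 are, by name, paralogs or associated genes (Rpl7l1, Rpl22l1, Rpl36al, Rps4y2, Rps27l and Rps19bp1), though GENCODE annotates Rps4y2 as a transcribed processed pseudogene. The other 22 are copies whose symbols hold "-ps", among them Rpl10-ps3 and Rps12-ps3, which GENCODE annotates as protein-coding. Of 77 canonical names looked for, 76 were found, and Rps27 was not analysed here.

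Ribosomal proteins build, with ribosomal RNA, the small and large subunits of the cytosolic ribosome. Their mRNAs are abundant in most tissues and share a terminal oligopyrimidine tract at the 5′ end, through which the kinase mTOR and the RNA-binding protein LARP1 set their translation. The mouse genome also carries many processed copies of these genes, made by reverse transcription of spliced mRNA and inserted elsewhere without introns, and some are nearly identical to their parent gene.

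RNA came from whole liver of male mice aged 10 weeks, with the strain label C57BL/6, fed for 3 weeks a methionine- and choline-deficient (MCD) diet, which produces steatohepatitis. KO mice had Lyzs-Cre with deletion of p38γ (Mapk12) and p38δ (Mapk13), 2 stress-activated kinases. Anti-Ly6G mice had Lyzs-Cre and were given antibody to the neutrophil antigen Ly6G, which the sample titles call GR1. Control mice had Lyzs-Cre and neither the deletion nor the antibody, as far as the labels say. Lyzs is lysozyme 2, whose promoter drives Cre in myeloid cells, and whole liver is mostly hepatocytes. Each group had 4 pools of RNA from 2 animals, fewer than the 12 males that the extraction protocol gives for a genotype. A mitochondria label, which the growth protocol ties to conplastic strains, read NZB in the third and the fourth KO pool and throughout the anti-Ly6G group, and C57 in the other KO pools and throughout the control group. Between anti-Ly6G and control, treatment and this label therefore cannot be told apart without the KO pools.

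The libraries held 13.1 to 22.3 M reads. Mapk12 was at a signal of 1.63 to 3.06 in KO, 1.54 to 1.86 in anti-Ly6G and 1.75 to 2.71 in control pools, so KO and control overlapped in whole liver, and Mapk13 was not analysed here. Signal is the table's unit, reads scaled to a TMM-adjusted library of 1 M. The 7 hepatocyte markers summed to 95942 to 122160.0 in KO, 100198 to 137273 in anti-Ly6G and 104112 to 121488 in control pools. The 5 measured of 8 neutrophil markers (Ly6g, Mpo and Elane were not among them) summed to 26.5 to 30.7 in KO, 7.11 to 12.8 in anti-Ly6G and 16.4 to 30.2 in control pools. The 8 macrophage markers summed to 456 to 756 in KO, 151 to 215 in anti-Ly6G and 316 to 644 in control pools, and the 6 stellate markers to 161 to 262 in KO, 50.8 to 58.9 in anti-Ly6G and 89.4 to 194 in control pools. The 4 endothelial markers summed to 77.7 to 130.2 in KO, 93.2 to 115 in anti-Ly6G and 127 to 143 in control pools. In bulk RNA, fewer cells of a type and less RNA per cell cannot be told apart, and the part of these markers in the differences below was not tested.

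Parents and copies were close in sequence. Coding sequences of 21 of the 22 copies were aligned with those of their parents in GENCODE vM21 (build GRCm38). All 21 copies are annotated with 1 exon, and 1 of them lies on its parent's chromosome. Identity over the aligned bases ran from 92.25% for Rps15a-ps8 to 100%, and in 9 copies no aligned base differed (Rpl10-ps3, Rpl10a-ps1, Rpl15-ps3, Rpl27-ps3, Rpl28-ps1, Rpl31-ps8, Rps6-ps4, Rps12-ps3 and Rps13-ps2). In 20 copies under 50% of the stretches of 25 bases were unique to the gene, and in 10 copies none was. How the counting assigned reads that fit parent and copy equally, and whether it used strand, is not given in the sources used here, so the values of single parents and copies are uncertain.

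The stretches below show 4 of the families in which a copy's share of the family signal did not overlap between KO and anti-Ly6G pools, picked after their values were seen. Each is the coding strand, 5′ to 3′, from GENCODE vM21, and capitals mark bases at which members of the family differ. The first is Rps13 of the small subunit (chr7:116331557-116332410, minus strand, across an intron), with Rps13-ps1 (chr8:87048110-87048168, plus strand) and Rps13-ps2 (chr7:88530450-88530508, minus strand). The 2 capitals are the only differing bases among 456 aligned for Rps13-ps1, and the 453 aligned for Rps13-ps2 hold none.
Rps13: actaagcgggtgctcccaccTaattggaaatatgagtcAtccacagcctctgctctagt
Rps13-ps1: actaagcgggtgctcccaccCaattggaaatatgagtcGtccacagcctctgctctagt
Rps13-ps2: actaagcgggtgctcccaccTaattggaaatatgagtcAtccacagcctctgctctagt

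Rpl34 of the large subunit (chr3:130729064-130729104, minus strand) and Rpl34-ps1 (chr6:71124721-71124761, plus strand) differ at 2 of 354 coding bases, 1 of them in the stretch shown.
Rpl34: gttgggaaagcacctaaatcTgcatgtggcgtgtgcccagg
Rpl34-ps1: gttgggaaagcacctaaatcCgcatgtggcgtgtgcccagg

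Rpl29 of the large subunit (chr9:106430322-106430362, plus strand) has a copy named as a gene model, Gm13841 (chr5:115802068-115802108, minus strand), that differs at 3 of 483 coding bases.
Rpl29: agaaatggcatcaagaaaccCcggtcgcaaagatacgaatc
Gm13841: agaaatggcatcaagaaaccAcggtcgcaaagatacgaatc

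Rps15a of the small subunit (chr7:118115135-118115241, minus strand) is shown with Rps15a-ps5 (chr5:105797607-105797713, minus strand) and Rps15a-ps8 (chr4:53791350-53791456, minus strand), which differ from it at 5 of 393 and 30 of 387 aligned coding bases.
Rps15a: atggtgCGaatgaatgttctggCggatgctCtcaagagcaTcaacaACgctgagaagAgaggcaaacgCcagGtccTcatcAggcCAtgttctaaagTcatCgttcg
Rps15a-ps5: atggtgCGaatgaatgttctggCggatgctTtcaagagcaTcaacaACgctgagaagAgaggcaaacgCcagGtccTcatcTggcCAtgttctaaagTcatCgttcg
Rps15a-ps8: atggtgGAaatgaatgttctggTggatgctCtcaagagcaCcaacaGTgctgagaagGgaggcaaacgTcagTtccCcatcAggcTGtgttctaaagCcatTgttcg

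Summed over the 104 genes, the signal was 16551, 17738, 15831 and 15800.3 in KO pools 1 to 4 and 17491, 16846, 15544 and 17965 in anti-Ly6G pools, against 18282, 18409, 18361 and 18706 in control pools. No KO or anti-Ly6G pool reached the lowest control pool. As a share of recovered reads, without the TMM scaling, the genes took 1.72% ± 0.0542 in KO, 1.64% ± 0.0757 in anti-Ly6G and 1.84% ± 0.0922 in control pools (SD, n = 4 each), and here KO and control pools overlapped. These sums describe the genes together and were not tested.

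The 30 small-subunit genes summed to 5822 ± 344 in KO, 5936 ± 381 in anti-Ly6G and 6568 ± 106 in control pools. The 43 large-subunit genes summed to 6819 ± 339 in KO, 7244 ± 439.6 in anti-Ly6G and 7543 ± 64.5 in control pools, and 2 anti-Ly6G pools lay within or above the control range. The 3 stalk genes summed to 1194 ± 71.3 in KO, 1164 ± 129 in anti-Ly6G and 1356 ± 119 in control pools, with overlap. The 22 copies summed to 2354 ± 158 in KO, 2303 ± 108 in anti-Ly6G and 2662 ± 77.3 in control pools (SD, n = 4 in each case). For the small subunit and the copies every control pool lay above every other pool. On this scale, in all 4 classes both NZB-labelled KO pools lay below both C57-labelled KO pools. As shares of recovered reads, without the TMM scaling, the NZB-labelled and C57-labelled KO pools overlapped in all 4 classes.

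**Figure D1:**
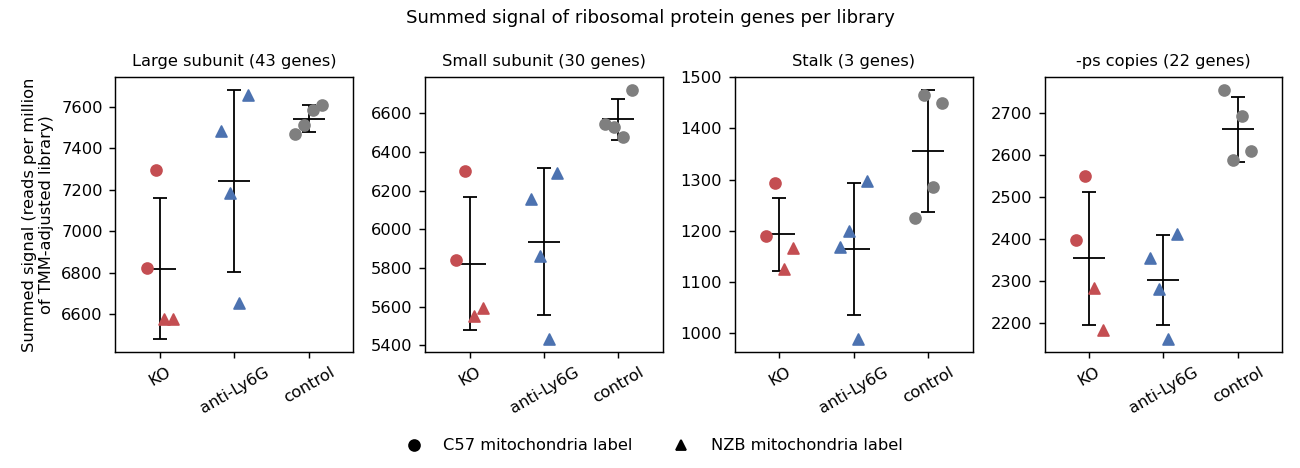
Summed signal (reads per M of the TMM-adjusted library) of 4 classes of ribosomal protein genes in KO, anti-Ly6G and control pools, with 1 symbol per pool, its shape giving the mitochondria label, and mean and SD (n = 4). For the small subunit and the copies all 4 control pools lie above all KO and anti-Ly6G pools.

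KO against control addresses loss of p38γ and p38δ in myeloid cells. None of the 104 genes passed the limma-trend test on log2(signal + 0.5), with Benjamini-Hochberg adjustment over all genes at 0.05, which 1.12% of all genes passed (0.585% higher and 0.534% lower). edgeR's quasi-likelihood test on the recovered reads also called 0 (1.3% of all genes), and DESeq2 called 14, all lower in KO (4.9% of all genes). At an unadjusted p under 0.05 limma gave 48 of the 104, 45 of them lower, against 18.9% of all genes and 9.46% lower. The lowest adjusted p was 0.0586, for Rpl10-ps3.

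The differences were small and mostly of one sign. The median log2 fold change of the 104 genes was -0.17, against -0.0013 for all genes. Of the 104, 90 were below 0, against 50.4% of all genes. The 4 KO pools were all below the control pools in 38 genes (6.62% of all genes) and above in 0 (5.73% of all genes). The median was -0.18 for the small subunit, -0.15 for the large subunit, -0.18 for the stalk, -0.21 for the copies and 0.03 for the paralogs and associated genes. Below 0 were 28 of 30, 38 of 43, 3 of 3, 19 of 22 and 2 of 6 in that order. Scaled by library totals, which moved the median of all genes to 0.06, the median of the 104 was -0.10 and 86 were below 0.

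On the TMM-scaled signal the mitochondria label moved with this difference. With the C57-labelled KO pools alone, which share the control pools' label, the median was -0.10 and 83 of the 104 genes were below 0. With the NZB-labelled KO pools alone it was -0.22 and 92 were below 0. Both subsets called 0 of the genes in limma, beside 0.492% and 0.416% of all genes. Within the KO group, 89 of 104 genes were lower in the NZB-labelled pools, against 48.2% of all genes, and in 63 both NZB pools lay below both C57 pools, against 26.9%, while in 6 both lay above, against 27.0%. In that contrast limma called 0 of the 104 and 0.0% of all genes. At an unadjusted p under 0.05 limma gave 9 of the 104, all 9 lower, against 1160 of 11791 genes, 558 of them lower. The count of 9 is thus near the background. Without the TMM scaling the ordering by label was not seen in the summed reads. The 104 genes took 1.65% and 1.79% of reads in the C57-labelled KO pools and 1.71% and 1.71% in the NZB-labelled ones.

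Rpl4, whose protein reaches into the peptide exit tunnel, had the highest mean signal. It was at 563, 588, 539.9 and 549 in KO and 625, 587, 574 and 619 in anti-Ly6G pools, against 644, 648, 667 and 643 in control pools. KO and control did not overlap, and KO minus control was -0.22 ± 0.06 on the log2 scale (SE, limma adjusted p 0.0930). Rpl13a, a large-subunit protein, was at 374, 392, 367 and 364 in KO and 431, 416, 394 and 451 in anti-Ly6G pools, against 411, 433, 423 and 434 in control pools, again with KO and control apart (-0.18 ± 0.06, adjusted p 0.143). Rpl36al, a paralog of Rpl36a, was at 105 ± 3.81 in KO, 110.3 ± 1.48 in anti-Ly6G and 123 ± 4.37 in control pools (SD, n = 4 each), with an adjusted p of 0.0600 for KO minus control in limma.

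Of the copies, Rpl10-ps3 was at 237, 259.8, 246 and 235 in KO and 256, 256, 273 and 289.7 in anti-Ly6G pools, against 294, 289, 289.9 and 339 in control pools. KO and control did not overlap (-0.31 ± 0.07). Its parent Rpl10, a large-subunit gene, was at 144 ± 12.2 in KO, 169 ± 14 in anti-Ly6G and 133 ± 16.2 in control pools. Rpl14-ps1 was at 48.2 ± 8.97 in KO, 52.1 ± 4.14 in anti-Ly6G and 64.6 ± 5.01 in control pools, and Rpl14 at 130.5 ± 3.97 in KO, 131 ± 12.5 in anti-Ly6G and 139 ± 6.77 in control pools (SD, n = 4 each). Without KO pool 2, Rpl14-ps1 was the 1 gene of the 104 that passed, at -0.54, where 1.12% of all genes passed with all pools. The sum of Rpl14 and Rpl14-ps1 did not pass with all pools (-0.19, limma adjusted p 0.171). The 14 genes that DESeq2 called were at -0.42 to -0.18, among them the copies Rpl10-ps3, Rpl14-ps1, Rps6-ps4 and Rps23-ps and the ribosomal protein genes Rpl4, Rpl13a, Rpl32, Rpl36a and Rps16.

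**Figure D2:**
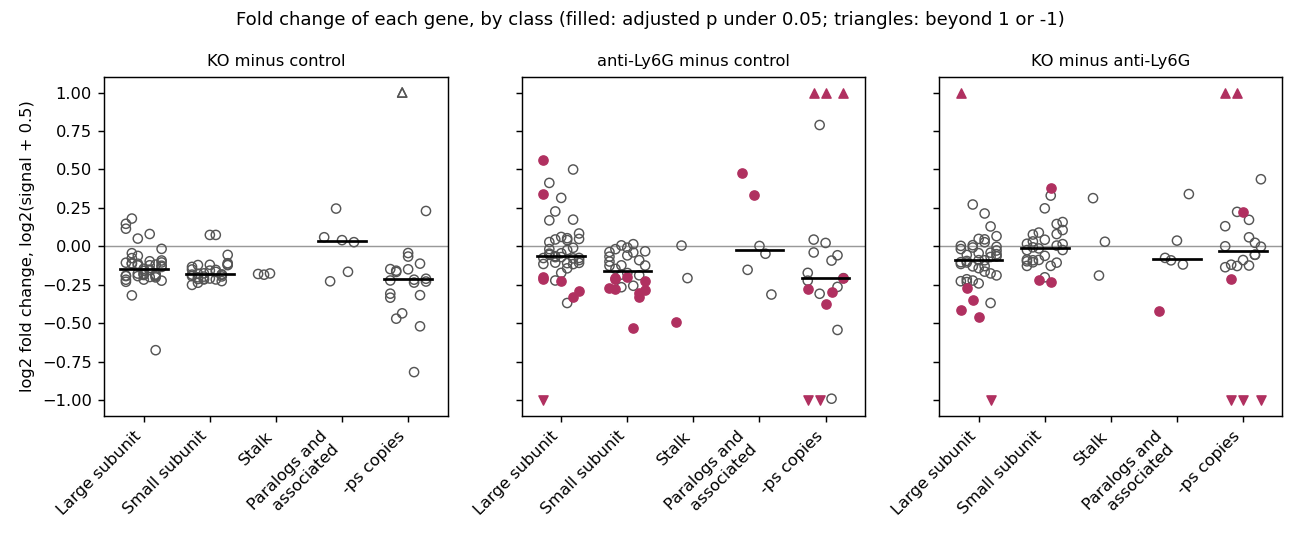
Log2 fold change of the 104 genes on log2(signal + 0.5), by class, for each comparison, with filled symbols for an adjusted p under 0.05 and class medians. No symbol is filled in KO minus control, where the medians of the small subunit and the copies are -0.18 and -0.21, and filled symbols lie on both sides of 0 in both comparisons with anti-Ly6G.

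Anti-Ly6G against control addresses neutrophil depletion on this diet. Of the 104 genes 30 passed, 7 higher and 23 lower in anti-Ly6G, beside 30.4% of all genes (15.1% higher and 15.3% lower), so the count is near the background. edgeR called 29 (30.2% of all genes) and DESeq2 34 (32.1%), and limma gave 43 at an unadjusted p under 0.05 (42.3%), 33 of them lower (21.3%). The median was -0.10, against -0.0022 for all genes, and 77 of 104 were below 0, against 50.2%. All anti-Ly6G pools lay below all control pools in 26 genes and above in 6, against 13.1% and 14.2% of all genes. With the mitochondria label as a covariate 4 genes passed (Rpl15, Rps13-ps1 and Rps15a-ps8 higher, Rpl29 lower), beside 8.25% of all genes, and the median was 0.0017.

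Of 30 small-subunit genes 10 fell and 0 rose in anti-Ly6G pools, beside 15.3% and 15.1% of all genes. Rps2, whose protein lines the mRNA entry, was at 225, 240.1, 204 and 205 in KO and 171, 173, 153 and 176 in anti-Ly6G pools, against 243, 254, 231 and 243 in control pools. Anti-Ly6G pools lay below all others (-0.53 ± 0.07 against control, limma adjusted p 0.000197). The other 9 were Rps3a, Rps7, Rps16, Rps21, Rps24, Rps26, Rps28, Rps29 and Rpsa, the laminin receptor gene. For Rps7 (-0.31, adjusted p 0.0367) a gene model close to it, Gm6472, was at 110.4 ± 17.4 in KO, 147 ± 5.18 in anti-Ly6G and 119.5 ± 4.75 in control pools (SD, n = 4 each) and rose (0.30, adjusted p 0.0273). Their sum did not pass (-0.01, adjusted p 0.904). Rpsa was at 252 ± 8.72 in KO, 239 ± 24.7 in anti-Ly6G and 289 ± 9.86 in control pools (SD, n = 4 each), with -0.28 and an adjusted p of 0.0131.

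Of 43 large-subunit genes 2 rose and 6 fell, where 15.1% of all genes rose and 15.3% fell. Rpl15 was at 46.8, 46.1, 47.2 and 42.4 in KO and 62.3, 64.9, 60.1 and 56.3 in anti-Ly6G pools, against 41.3, 39.2, 44.5 and 39.7 in control pools. Anti-Ly6G pools lay above all others (0.56 ± 0.07 against control, limma adjusted p 0.000104). Rpl10 rose too (0.34 ± 0.09, adjusted p 0.0145), with single pools overlapping, while its sum with Rpl10-ps3 did not pass (0.0022, adjusted p 0.984). Those that fell were Rpl29, described with its copy below, and Rpl6, Rpl8, Rpl21, Rpl23 and Rpl35a, at -0.33 to -0.20. Rplp0, the base of the stalk that recruits translation factors, was at 498, 584, 480.005 and 494 in KO and 436, 446, 318 and 467 in anti-Ly6G pools, against 478, 656, 555 and 652 in control pools and fell (-0.49 ± 0.13, adjusted p 0.0120). With its gene models Gm8730 and Gm9625 added, the Rplp0 family did not pass (-0.19, adjusted p 0.0518). The other stalk genes, Rplp1 at 494 ± 14.3 in KO, 564 ± 45.8 in anti-Ly6G and 561 ± 32 in control pools and Rplp2 at 186 ± 13.2 in KO, 183 ± 22.4 in anti-Ly6G and 209.9 ± 12.8 in control pools (SD, n = 4 each), did not pass.

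Both paralogs that passed were higher in anti-Ly6G. Rpl22l1, a paralog of Rpl22, was at 29.8, 33.1, 32.5 and 31.6 in KO and 41.2, 46.1, 41.9 and 41.4 in anti-Ly6G pools, against 28, 33, 26.8 and 34.4 in control pools, with anti-Ly6G above all others (0.48 ± 0.08 against control, limma adjusted p 0.00125). Rpl7l1, a paralog of Rpl7, was at 48.2 ± 2.81 in KO, 51.6 ± 6.11 in anti-Ly6G and 41 ± 6.57 in control pools (0.34 ± 0.11, adjusted p 0.0360), a call lost in 7 of 18 alternatives. Rps27l, a p53-responsive paralog of Rps27, was at 85 ± 4.89 in KO, 92.4 ± 7.12 in anti-Ly6G and 95.3 ± 2.44 in control pools. Rps19bp1, whose protein binds Rps19, was at 10.4 ± 0.810 in KO, 10.1 ± 0.909 in anti-Ly6G and 10.1 ± 1.33 in control pools, and Rps4y2, which GENCODE names Rps4l, at 11.2 ± 2.91 in KO, 8.58 ± 1.21 in anti-Ly6G and 11 ± 2.86 in control pools (SD, n = 4 each). None of these 3 passed in any comparison.

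The largest differences were in copies and in the parent gene Rpl29. In the Rps13, Rpl34 and Rpl29 families, signal of a member was high in pools in which another was low. In the Rps15a family no member passed in the opposite direction. Rps13-ps1 was at 0, 0, 0 and 0 in KO and 57.5, 55.4, 61.8 and 59.3 in anti-Ly6G pools, against 0.441, 0, 0 and 0 in control pools. Rps13-ps2 was at 69.4, 63.3, 74.4 and 70.9 in KO and 18.5, 0, 8.68 and 4.45 in anti-Ly6G pools, against 93, 86.1, 81.1 and 90.2 in control pools. Anti-Ly6G pools stood apart from all others in both, high in Rps13-ps1 and low in Rps13-ps2. Rps13 itself was at 52.8 ± 10.6 in KO, 44.7 ± 10.7 in anti-Ly6G and 49.7 ± 6.45 in control pools (SD, n = 4 each) and did not pass.

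For Rps13-ps1, anti-Ly6G minus control was 6.65 ± 0.19 on the log2(signal + 0.5) scale (limma adjusted p 3.16e-11). The ratio of summed reads, 4033 against 7, was 567 with an exact 95% counting interval of 275 to 1411. KO pools had no read, and KO was at least 404-fold lower than anti-Ly6G at a floor of 3 reads per library. For Rps13-ps2, anti-Ly6G minus control was -4.27 ± 0.76 (adjusted p 0.00131). The sum of Rps13 and both copies was 124, 129, 115 and 121 in KO and 112, 107, 106 and 120.2 in anti-Ly6G pools, against 134, 139, 132 and 145 in control pools. This sum fell by less in anti-Ly6G, with -0.31 against control (adjusted p 0.00336).

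Rpl34 and Rpl34-ps1 varied in this way within the control group too. Rpl34-ps1 was at 79.3, 90.8, 79.1 and 39.8 in KO and 0, 0.659, 0 and 0 in anti-Ly6G pools, against 90.004, 0.301, 85.9 and 1.32 in control pools. Rpl34 was at 60.2, 51.6, 52.6 and 86.2 in KO and 144, 139, 132 and 141 in anti-Ly6G pools, against 63.5, 149.9, 65.2 and 148 in control pools. Control pools 1 and 3 had signal in both, and control pools 2 and 4 almost all of it in Rpl34, as anti-Ly6G pools did. The family sum was 126 to 142 in KO, 132 to 144 in anti-Ly6G and 149.8 to 154 in control pools, and it did not pass in any comparison. For Rpl34-ps1, anti-Ly6G minus control was -4.07 ± 1.23 (limma adjusted p 0.0238). This call was lost without control pool 1, control pool 3 or anti-Ly6G pool 1, and with the mitochondria covariate. KO minus anti-Ly6G was 6.82 ± 1.23 (adjusted p 0.00155).

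Rpl29 was at 84.8, 95.4, 53.6 and 49.9 in KO and 21.4, 5.98, 4.15 and 6.14 in anti-Ly6G pools, against 97.8, 59.1, 61.5 and 81.9 in control pools. Gm13841 was at 0, 0, 36.5 and 37.9 in KO and 77.4, 98.4, 84.7 and 103 in anti-Ly6G pools, against 0.189, 36.3, 34 and 22.4 in control pools. Anti-Ly6G pools were lowest in Rpl29 and highest in Gm13841, and both NZB-labelled KO pools and 3 C57-labelled control pools also had Gm13841 signal above 20. For Rpl29, anti-Ly6G minus control was -3.18 ± 0.38 (limma adjusted p 9.04e-05). The sum of both was 84.8 to 95.4 in KO, 88.9 to 109.6 in anti-Ly6G and 95.4 to 104 in control pools, and anti-Ly6G minus control was 0.03 (adjusted p 0.793).

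Rps15a-ps8 was at 0, 0, 0 and 0 in KO and 5.82, 7.50, 8.92 and 9.86 in anti-Ly6G pools, against 0.0630, 0, 0 and 0 in control pools. The control value is 1 read. Rps15a-ps5 was at 0, 0, 0.915 and 0.670 in KO and 4.24, 5.12, 8.97 and 10.3 in anti-Ly6G pools, against 0, 0, 2.61 and 1.45 in control pools. Both were highest in anti-Ly6G pools, by 4.02 ± 0.19 (limma adjusted p 1.36e-08) and 2.70 ± 0.57 (0.00363) against control. The call for Rps15a-ps5 was lost with DESeq2 and with the mitochondria covariate. For Rps15a-ps8, KO was at least 55.4-fold lower than anti-Ly6G at the same floor, and the ratio of anti-Ly6G to control reads was 540.3 with an exact 95% counting interval of 96.6 to 21380. Rps15a-ps7 was at 7.59 ± 1.47 in KO, 6.69 ± 2.28 in anti-Ly6G and 5.76 ± 4.43 in control pools, and Rps15a, which held most of the family's signal, at 105 ± 1.73 in KO, 104 ± 9.37 in anti-Ly6G and 114 ± 11.2 in control pools (SD, n = 4 each). Neither passed.

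Gene models outside the name rule showed the same in further families. Gm8841, which GENCODE names Rps2-ps10, was at 0, 0, 0 and 0 in KO and 39.8, 39.2, 39.7 and 49.1 in anti-Ly6G pools, against 0, 0, 0 and 0.198 in control pools. Added to Rps2, it left a family difference of -0.21 between anti-Ly6G and control (limma adjusted p 0.0392). Gm10020, a copy of Rpl15, was at 0, 0, 0 and 0 in KO and 32.7, 33.1, 27.9 and 17.1 in anti-Ly6G pools, against 0, 0, 0 and 0.727 in control pools. Rpl15-ps3 was at 158, 162, 149.96 and 151 in KO and 139, 133, 120.3 and 140.4 in anti-Ly6G pools, against 172, 181, 163 and 173 in control pools, with anti-Ly6G lowest (-0.37 ± 0.06 against control, adjusted p 0.00124). Rpl15 with both copies differed by 0.05 (adjusted p 0.529). Of all 24 such gene models, limma called 3 higher and 4 lower in anti-Ly6G than in control, 5 lower in KO than in anti-Ly6G, and 0 between KO and control. Of all genes 15.1% were higher and 15.3% lower in anti-Ly6G than in control, and 13.1% lower in KO than in anti-Ly6G.

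**Figure D3:**
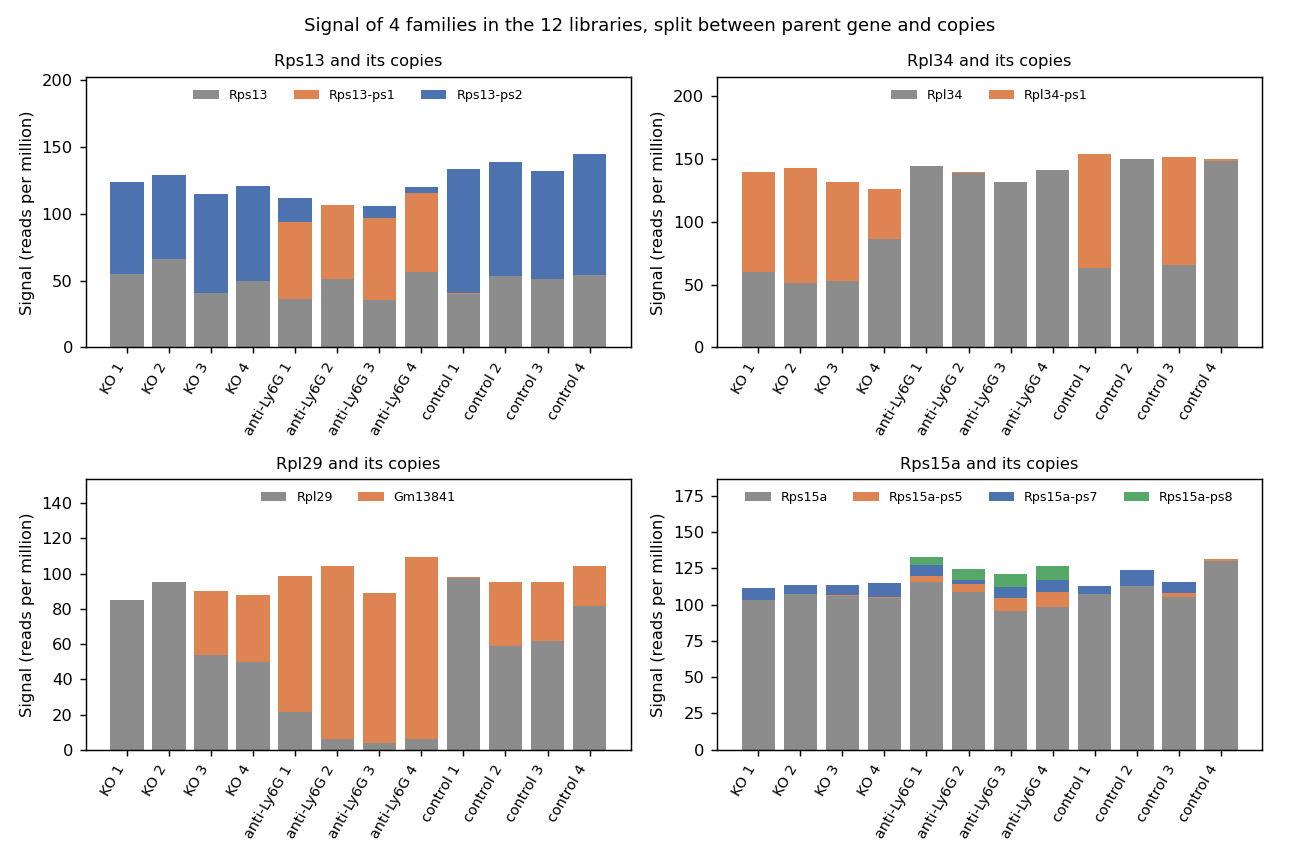
Signal (reads per M) of 4 families in the 12 pools, stacked by parent gene and copies. The parts differ between anti-Ly6G and the other pools, and for Rpl34 between control pools, while the Rpl34 stack is 126 to 142 in KO, 132 to 144 in anti-Ly6G and 149.8 to 154 in control pools.

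Several copies held more signal than their parents in every group. Over all pools, 9 of the 22 copies took over 50% of the signal of parent and -ps copies. Rps6, the substrate of the S6 kinases, was at 6.08 ± 2.24 in KO, 5.47 ± 3.52 in anti-Ly6G and 5.49 ± 0.827 in control pools, and Rps6-ps4, identical over 750 coding bases, at 390.2 ± 21.4 in KO, 391 ± 27.6 in anti-Ly6G and 451 ± 12.4 in control pools (SD, n = 4 each), or 98.6% of the family. Per kilobase of transcript the signal was 548 for Rps6-ps4 and 6.47 for Rps6 over all pools. Rps6-ps4 was lower in anti-Ly6G than in control (-0.21, limma adjusted p 0.0349), a call lost in 8 of 18 alternatives.

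The others above 50% were Rpl31-ps8 (96.1%), Rpl10a-ps1 (90.01%), Rpl28-ps1 (86.8%), Rpl27-ps3 (84.3%), Rps23-ps (84.2%), Rpl15-ps3 (75.7%), Rpl10-ps3 (64.7%) and Rpsa-ps10 (56.2%). Rpl31 was at 6.95 ± 1.80 in KO, 8.17 ± 1.17 in anti-Ly6G and 7.78 ± 0.843 in control pools, and Rpl31-ps8 at 179 ± 18.3 in KO, 194 ± 17.3 in anti-Ly6G and 199 ± 1.57 in control pools. Rpl10a was at 25.2 ± 1.71 in KO, 30.3 ± 7.53 in anti-Ly6G and 22.6 ± 5.24 in control pools, and Rpl10a-ps1 at 214 ± 10.8 in KO, 248 ± 20.7 in anti-Ly6G and 240.3 ± 8.65 in control pools. Rpl28 was at 29.3 ± 4.67 in KO, 30.5 ± 3.03 in anti-Ly6G and 29.5 ± 3.28 in control pools, and Rpl28-ps1 at 186 ± 18.8 in KO, 186 ± 22.2 in anti-Ly6G and 216 ± 14.2 in control pools (SD, n = 4 each). Of these 6 rows, Rpl10a-ps1 passed, lower in KO than in anti-Ly6G, and that call was lost in 10 of 19 alternatives.

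Rps23 was at 32.7 ± 1.59 in KO, 33.4 ± 4.01 in anti-Ly6G and 36.4 ± 3.05 in control pools, and Rps23-ps, which GENCODE names Gm9701, at 174 ± 13.4 in KO, 167 ± 7.72 in anti-Ly6G and 205 ± 2.73 in control pools. Rpsa-ps10 was at 331 ± 18.7 in KO, 302 ± 10.1 in anti-Ly6G and 366 ± 5.41 in control pools (SD, n = 4 each). Both copies fell in anti-Ly6G against control, with log2 differences of -0.29 for Rps23-ps (limma adjusted p 0.00476) and -0.28 for Rpsa-ps10 (adjusted p 0.00411). Rpl27-ps3 spread widely within groups, at 27.6 to 92.3 in KO, 28.7 to 64.5 in anti-Ly6G and 17.1 to 96.4 in control pools, and Rpl27 was at 8.92 to 12.4 in KO, 7.40 to 12.2 in anti-Ly6G and 11.3 to 13.3 in control pools. With the gene model Gm11518 the Rpl27 family was at 133 to 141 in KO, 127 to 148 in anti-Ly6G and 149 to 157 in control pools, a narrower spread.

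**Figure D4:**
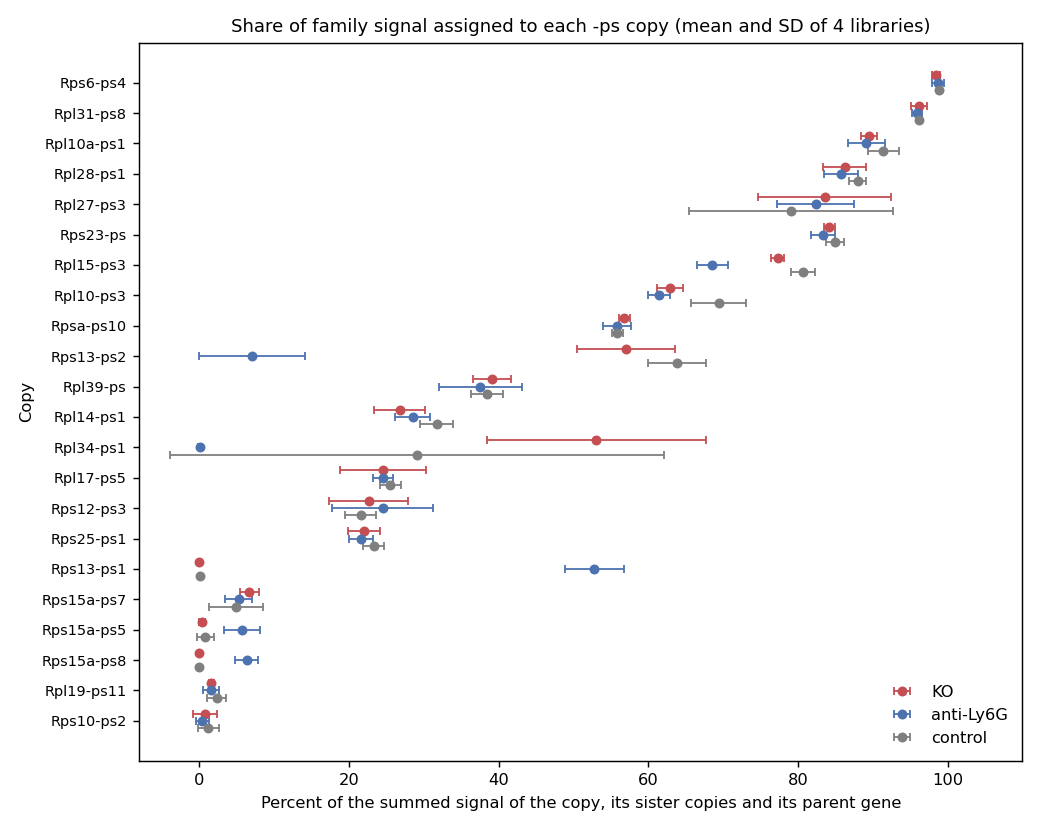
Percent of the summed signal of parent and -ps copies taken by each of the 22 copies, as mean and SD of 4 pools in KO, anti-Ly6G and control. The shares run from 98.6% for Rps6-ps4 to 0.851% for Rps10-ps2 over all pools, and the anti-Ly6G pools lie apart from all other pools for Rps13-ps1, Rps13-ps2, Rps15a-ps5, Rps15a-ps8 and Rpl15-ps3. For Rpl34-ps1 they overlap control pools.

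The remaining copies took the smaller part. Rpl39-ps was at 37.2 ± 2.62 in KO, 39.7 ± 5.11 in anti-Ly6G and 39 ± 4.25 in control pools, and Rpl39 at 57.9 ± 2.42 in KO, 66.5 ± 9.24 in anti-Ly6G and 62.3 ± 3.45 in control pools. Rpl17-ps5 was at 63.1 ± 18.8 in KO, 66.9 ± 8.49 in anti-Ly6G and 70.9 ± 3.87 in control pools, and Rpl17 at 191 ± 9.61 in KO, 205 ± 13.9 in anti-Ly6G and 207 ± 5.77 in control pools. Rps12-ps3 was at 62 ± 12.8 in KO, 64.5 ± 14.9 in anti-Ly6G and 66.1 ± 6.47 in control pools, and Rps12 at 213 ± 22.2 in KO, 201 ± 29.5 in anti-Ly6G and 239.9 ± 12.3 in control pools. These 6 rows did not pass limma in any comparison of all pools without a covariate. Rps25-ps1 was at 46.3 ± 7.20 in KO, 47.9 ± 6.14 in anti-Ly6G and 57.3 ± 2.37 in control pools, and Rps25 at 163 ± 6.46 in KO, 174 ± 12.5 in anti-Ly6G and 189 ± 6.73 in control pools. Rpl19-ps11 was at 4.90 ± 1.00 in KO, 5.51 ± 4.03 in anti-Ly6G and 7.80 ± 4.21 in control pools, and Rpl19 at 297 ± 9.52 in KO, 334 ± 23.9 in anti-Ly6G and 323 ± 3.71 in control pools. Rps10-ps2, whose ID is not in GENCODE vM21, was at 6.18, 0, 0 and 0 in KO and 0, 0, 0 and 3.64 in anti-Ly6G pools, against 5.48, 0, 4.87 and 0 in control pools, so 4 pools had signal, and Rps10 was at 184 ± 5.93 in KO, 195 ± 12 in anti-Ly6G and 209 ± 6.85 in control pools (SD, n = 4 each). These 6 did not pass either.

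The log2 ratio of copy to parent was compared for 22 pairs by an exact two-sided permutation test, whose smallest possible p is 0.0286. After adjustment over the pairs 0 passed in each comparison. Passing would have needed most of the 22 pairs at that smallest p, so this 0 says little about single pairs. Between anti-Ly6G and control 6 pairs reached the smallest p (Rpl10-ps3, Rpl15-ps3, Rps13-ps1, Rps13-ps2, Rps15a-ps5 and Rps15a-ps8, adjusted p 0.105, permutation test). Between KO and control 1 pair did, Rpl15-ps3 to Rpl15, with a mean log2 ratio of 1.76 in KO and 2.05 in control (adjusted p 0.419, permutation test). Between KO and anti-Ly6G 6 did, with Rpl34-ps1 in place of Rpl10-ps3.

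A sum of parent and copies does not depend on how reads were split within the family. Of 19 families by -ps name, 5 passed in anti-Ly6G minus control, all lower (Rps6, Rps12, Rps13, Rps23 and Rpsa), beside 30.4% of all rows, with a median of -0.14. In KO minus control limma called 0, beside 1.13% of all rows, and DESeq2 called 2, both lower. The median was -0.17 and 18 of 19 sums were below 0, against 50.4% of all genes, the other sum being Rpl27 (0.14).

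Adding the 24 gene models that share at least 50% of their 25-base stretches with a parent, a choice made after seeing the data, gave 36 families. In KO minus control all 36 sums were below 0, from -0.32 to -0.09, against 50.4% of all genes below 0. Rpl21 with Gm10163 was the 1 family that passed, at 65.3, 60.5, 55.6 and 55.3 in KO and 63.3, 58.2, 56.2 and 57.5 in anti-Ly6G pools, against 72.7, 72.5, 74.8 and 74.6 in control pools (-0.32 for KO minus control, limma adjusted p 0.0401), beside 1.19% of all rows. Neither row passed alone. In anti-Ly6G minus control 11 families passed, all lower (Rpl6, Rpl21, Rpl30, Rpl37a, Rps2, Rps6, Rps12, Rps13, Rps23, Rps28 and Rpsa), beside 30.4% of all rows. Of the 36 sums 29 were below 0, against 50.2% of all genes. Both comparisons share the control pools.

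**Figure D5:**
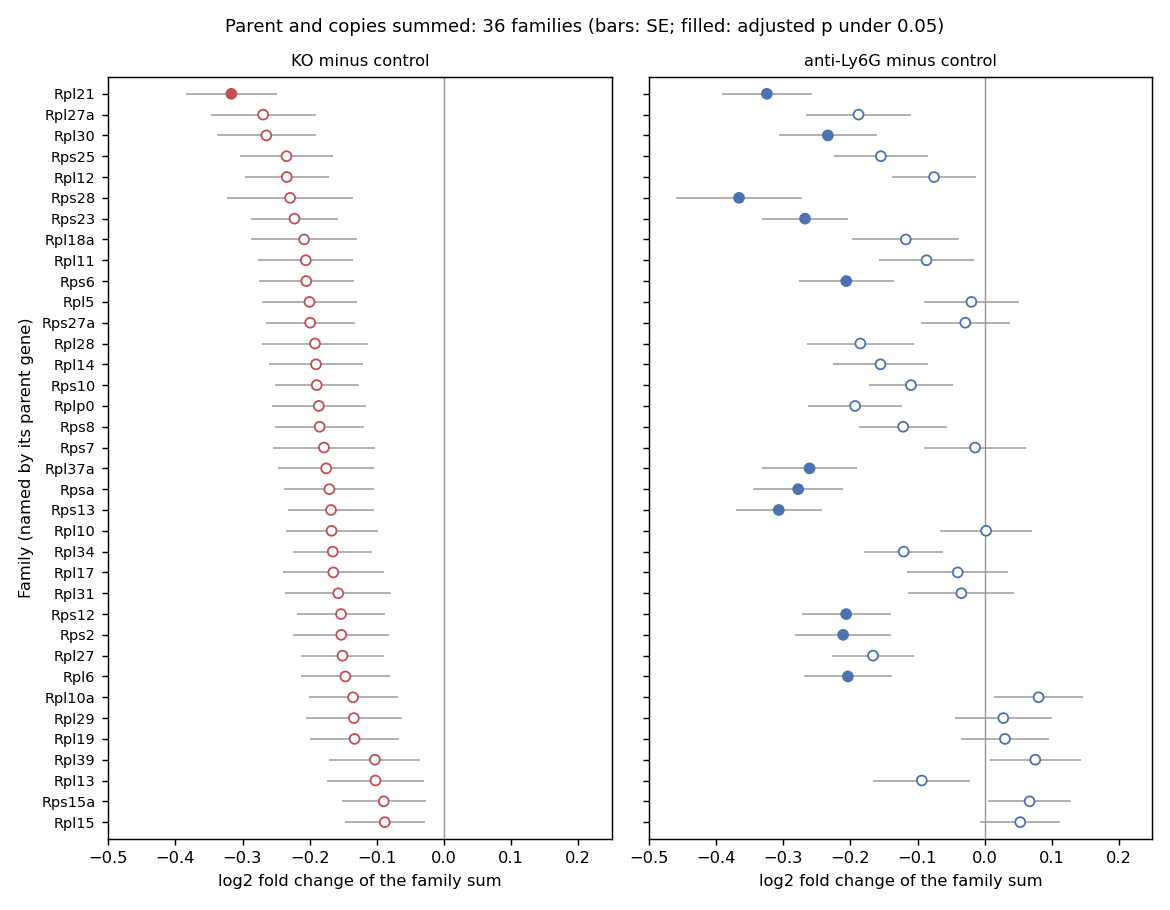
Log2 fold change with SE of the summed signal of 36 families, for KO minus control and anti-Ly6G minus control, filled where the adjusted p was under 0.05. In KO minus control all 36 lie between -0.32 and -0.09 with Rpl21 filled, and in anti-Ly6G minus control 11 are filled, all below 0.

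KO against anti-Ly6G called 17 of the 104 genes, 5 higher and 12 lower in KO, beside 26.8% of all genes (13.6% higher and 13.1% lower). At an unadjusted p under 0.05 there were 28 (39.6% of all genes), 20 of them lower (20.1%). edgeR called 17 (26.9% of all genes) and DESeq2 23 (29.1%). The median was -0.05, and 66 of 104 were below 0, against 51.8% of all genes. All KO pools lay above all anti-Ly6G pools in 6 genes (13.8%) and below in 9 (13.5%).

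Higher in KO were Rpl34-ps1, Rps13-ps2 (3.94), Rpl29 (3.08), Rps2 (0.38) and Rpl15-ps3 (0.22). Lower were Rps13-ps1 (-6.88), Rps15a-ps8 (-4.07), Rps15a-ps5 (-3.17), Rpl34 (-1.17), Rpl12, Rpl22l1, Rpl15, Rpl5, Rpl36, Rps14, Rps18 and Rpl10a-ps1. Rpl12 of the stalk base was at 7.87, 10.3, 8.20 and 8.08 in KO and 12.3, 14.2, 9.63 and 12.2 in anti-Ly6G pools, with overlap (-0.46 ± 0.13, limma adjusted p 0.0186), lost without KO pool 1 or anti-Ly6G pool 2. With their gene models added, the families of Rpl12 (-0.16), Rpl5 (-0.18) and Rps2 (0.06) did not pass. With only the NZB-labelled KO pools, which share the anti-Ly6G label, 14 genes passed, 4 higher and 10 lower, beside 17.3% of all genes. Rpl34, Rpl15-ps3, Rps18 and Rpl10a-ps1 were no longer among them, and Rpl17-ps5 was added, lower in KO. With the label as a covariate 17 passed, beside 20.1% of all genes, but not the same 17. Rpl15-ps3 and Rpl10a-ps1 dropped out, and Rpl17-ps5 was among the genes added. Scaled by library totals the split was 11 higher and 7 lower, and the median of the 104 genes was 0.06, beside 0.09 for all genes. Of the 19 family sums Rpl10a passed (-0.22, adjusted p 0.0283), beside 26.8% of all rows.

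Among ribosomal proteins that the name rule misses, Gnb2l1 (Rack1) was at 316 ± 9.73 in KO, 346 ± 26.8 in anti-Ly6G and 360.5 ± 15 in control pools, and Fau at 65.9 ± 6.20 in KO, 82.8 ± 4.94 in anti-Ly6G and 69.98 ± 10.4 in control pools (SD, n = 4 each). Gnb2l1 passed in no comparison and Fau in 1, lower in KO than in anti-Ly6G (-0.33, limma adjusted p 0.0281). Of 19 translation factors with the same 5′ tract, 0 passed in KO minus control in limma, beside 1.12% of all genes. There 17 were below 0, against 50.4% of all genes, with a median of -0.12. In anti-Ly6G minus control 1 rose, Eef1d (0.21), and 3 fell, among them the elongation factor Eef2 (-0.29) and Eif3f (-0.28), beside 15.1% and 15.3% of all genes. In KO minus anti-Ly6G 2 were lower, Eef1d (-0.24) and Eif3m (-0.23), beside 13.1% of all genes.

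For the lists that follow, the shares of all genes called in limma were 15.1% higher and 15.3% lower in anti-Ly6G minus control, and 13.6% higher and 13.1% lower in KO minus anti-Ly6G. Of 36 genes of ribosome assembly and rRNA transcription, 2 rose and 2 fell in anti-Ly6G against control, among them Ubtf, an activator of rRNA genes (-0.33), Mybbp1a (-0.40) and Polr1c, a subunit of RNA polymerases I and III (0.40). In KO minus anti-Ly6G 6 were lower, among them Wdr12 (-0.43), Rrn3 (-0.36) and Polr1c (-0.35). Of 16 regulators of ribosomal protein translation 3 rose and 4 fell in anti-Ly6G against control, among them Mlst8, an mTOR complex subunit (0.48), Myc (-0.64) and Larp1 (-0.32). In KO minus anti-Ly6G 4 were higher and 2 lower, among them Deptor, an inhibitor of mTOR (0.38), Myc (0.65) and Larp1 (0.33). In KO minus control limma called 0 of both lists, beside 1.12% of all genes, and their medians were -0.04 and 0.0087.

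Of 78 genes named as mitochondrial ribosomal proteins, 18 rose and 1 fell in anti-Ly6G against control (all genes 15.1% and 15.3%), with a median of 0.13. Mrps12 fell (-0.76), and Mrpl1 (0.66) and Mrps6 (0.60) rose. In KO minus anti-Ly6G 1 was higher, Mrps12 (0.72), and 19 were lower, among them Mrpl12 (-0.33) and Mrps36 (-0.47), beside 13.6% and 13.1% of all genes. In KO minus control limma called 0, beside 1.12% of all genes, with a median of -0.02. Differences between lists were not tested.

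The ID of the row named Rpl24 belongs to Zbtb11 in GENCODE vM21, so its values, 158 ± 7.59 in KO, 159 ± 7.13 in anti-Ly6G and 171 ± 10.7 in control pools (SD, n = 4 each), are of uncertain identity.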

How the data were processed

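Per the labels' protocols, RNA of 12 mouse liver pools was run on an Illumina GAIIx. Bowtie2 2.0.6, RSEM 1.2.3, cutadapt 1.2.1, edgeR and GRCm38 appear in the submitters' processing notes, with no roles. The deposited values are a normalized signal per gene. Each column summed to 0.922 to 1.06 M, and all values were whole multiples (tolerance 0.01) of the value of 1 read, which gave back reads and totals of 13.1 to 22.3 M. 3 reads correspond to a signal of 0.125 to 0.242. TMM factors recomputed from these reads matched the deposited scaling. Counting intervals cover counting error only.

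Groups were compared with limma-trend (limma 3.58.1, R 4.3.3) on log2(signal + 0.5), with the 12 libraries in 1 fit and Benjamini-Hochberg adjustment over all genes at 0.05, after a check on simulated data. The labels do not say that the pools share no animals, and p-values measure the spread between pools. Alternatives were edgeR 4.0.16 and DESeq2 1.42.0 on recovered reads, other scalings, pseudocounts of 0.1 and 1, a filter at 5, a replicate block, a mitochondria covariate, subsets by label and leaving out each pool. The named genes were all copies and their parents, the 5 largest passing changes in each direction, the 5 highest signals and the paralogs. Also named were Gnb2l1 and Fau of the missed ribosomal proteins and the 3 lowest p of each list with a passing gene. Others were named after their values were seen, and some genes within the rule are not reported here. The genes, lists and tests were chosen with earlier results of these data known.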

Additional observations from a re-analysis of the deposited data

Results flagged for a closer look

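In 162 groups of 4 pools (54 genes in 3 groups), 15 had a pool far from the other 3, where chance flags about 1 in 20 groups. That rate does not hold for groups with 3 pools at 0 and 1 above, which are always flagged. Such were those of Rps10-ps2, Rpl34-ps1, Rps13-ps1 and Rps15a-ps8. KO pool 2 was high in Rpl10a-ps1 (230.4, others 208 to 210.1), Rpl12 (10.3, others 7.87 to 8.20) and Rplp0 (584, others 480.0 to 498), and KO pool 1 in Rps10-ps2 (6.18, others 0). Anti-Ly6G pool 1 was high in Rpl19-ps11 (11.5, others 2.86 to 4.11) and Rpl29 (21.4, others 4.15 to 6.14). Anti-Ly6G pool 2 was high in Rpl22l1 (46.1, others 41.2 to 41.9) and Rpl34-ps1 (0.659, others 0). Anti-Ly6G pool 3 was low in Rpl31-ps8 (168, others 201 to 204) and Rps10 (177, others 200.01 to 202). Anti-Ly6G pool 4 was high in Rpl28-ps1 (219, others 174 to 176) and Rps10-ps2 (3.64, others 0). Control pool 4 was high in Rpl10-ps3 (339, others 289 to 294), and control pool 1 in Rps13-ps1 (0.441, others 0) and Rps15a-ps8 (0.0630, others 0).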

How the results depend on the processing

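Of the gene calls, 30 in anti-Ly6G minus control and 17 in KO minus anti-Ly6G, 27 were followed through the alternatives. For these 27, 451 of 498 alternatives kept direction and side of the threshold, 47 lost the call and 0 reversed. Of the counts of genes, anti-Ly6G minus control gave 4 with the mitochondria covariate, and KO minus control gave 14 with DESeq2. Family sums gave 10 with library totals and 0 with the mitochondria covariate in anti-Ly6G minus control, and 2 with DESeq2 in KO minus control. In KO minus anti-Ly6G they gave 2 with library totals (both higher), 3 with DESeq2, and 0 with the mitochondria covariate and with the NZB-labelled KO pools only. The cause was not tested. Leaving out 1 pool gave 20 to 38 genes in anti-Ly6G minus control, 0 to 1 in KO minus control and 12 to 23 in KO minus anti-Ly6G. For family sums it gave 3 to 7 (3 without anti-Ly6G pool 2 or 3 or control pool 2 or 4), 0 to 0, and 0 to 3 (0 without KO pool 1, 3 or 4 or anti-Ly6G pool 1 or 4, and 3 without anti-Ly6G pool 3) in that order, and 0 to 0 for the copy to parent ratios. Pools with the same replicate number did not deviate together in each pair (correlations from -0.209 to 0.172), so the numbers were not taken as pairs. With the replicate block the counts were 27, 0 and 17 genes and 4, 0 and 1 family sums in the same order. With 4 pools a group, ratios of single pairs could not pass below 0.0286 before adjustment.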
